A study of Mus musculus with 12 samples.

Results

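The oogenesins and the Tcl1 family are 2 groups of oocyte mRNAs that each stem from repeated gene duplication in the mouse. The 10 genes described here are the oogenesins Oog1, Oog2, Oog3 and Oog4, the single gene Tcl1 and its 5 relatives Tcl1b1 to Tcl1b5. They were listed by name, and each was found in the table of 23235 gene symbols. Oocytes from ovaries of wild-type (WT) and Mtr4-null females were taken at day 14, labelled as growing GV, and at day 21, labelled as GV, the germinal vesicle stage before meiosis resumes. Mtr4-null oocytes lack MTR4, an RNA helicase through which the nuclear exosome receives much of the RNA it degrades, and are called null oocytes from here on. The labels name 12 samples, 3 for each genotype and age, with 10 oocytes per sample, whereas the series' design text speaks of duplicates. The strain, the allele, any Cre driver and the number of animals behind a group are not given in the labels. Poly(A) RNA was amplified with Smart-seq2, which covers whole transcripts without keeping the strand.

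The values are FPKM, a read measure that allows for the length of a transcript and the size of a library, and each is the authors' mean over the libraries of a group. There is therefore no replicate error and no test was possible. The design text gives only a nominal sequencing yield, so the number of reads behind each value is unknown. Differences are given on the log2(FPKM + 1) scale, which slightly understates folds. Counts are of genes 2-fold or more apart on that scale, a rule of size with no test behind it. It was applied to the 11913 genes averaging 1 FPKM or more across the 4 means. All 10 members lay above that level in every group, the lowest value being 52.8 FPKM. The null day 21 column may be a mean of fewer libraries than were labelled, because 0.162% of its values above 0 end in the repeating digits that a mean of 3 leaves, against 55.4% to 57.4% in the other columns. Skiv2l2, the older symbol of the gene for MTR4, stood at 27.6 and 26.3 FPKM in WT at days 14 and 21 and at 1.57 and 3.86 FPKM in null oocytes. The 10 oocyte markers summed to between 14179 and 21979 FPKM, and none was at 0. The 11 granulosa markers summed to between 27.2 and 38.4 FPKM, with Fst at 0 in the null day 21 mean. Within that list, at day 21, Cyp19a1 stood at 25.3 FPKM in WT against 1.48 FPKM in null oocytes, while Hsd3b1 stood at 0.321 against 7.65 FPKM and Inha at 1.72 against 10.9 FPKM. Of its 6 genes that passed the filter, 2 were 2-fold higher and 1 lower at day 21. The 12 theca, stromal, endothelial and blood markers summed to between 3.29 and 21.7 FPKM, lowest in null oocytes at day 21. Most of this was Pecam1, listed as an endothelial gene. In WT day 14, null day 14, WT day 21 and null day 21 it stood at 13.2, 9.82, 20.7 and 2.13 FPKM. Cdh5, the other endothelial gene of the list, stood at 0, 0.0094, 0 and 0.033 FPKM in the same order. Hba-a1 and Hbb-b1 were at 0 in every group. The part of these cells in the results was not tested. In bulk samples, fewer cells of a type and less RNA per cell cannot be told apart, and FPKM do not show a difference in RNA content per oocyte.

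Oogenesins are leucine-rich repeat proteins of the PRAME family, a family known from cancer-testis antigens that has expanded in the mouse and whose oogenesin branch is transcribed in oocytes. Oog1 protein is known to bind RALGDS, an activator of Ral GTPases. TCL1 is a small beta-barrel protein that binds the kinase AKT and raises its activity. It is supplied by the oocyte and needed for efficient early cleavage, and the Tcl1b genes encode relatives of the same fold.

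Because duplicated genes often carry duplicated promoters, the start regions are shown first. The lines give the 150 bases before the annotated start, from RefSeq on GRCm38.p6, a later build than the mm9 named for these data. All 10 members matched by symbol. Capitals in the oogenesins mark CAGCTG, which is one form of the E-box that helix-loop-helix proteins bind. They also mark TATATA, a run that resembles the box bound by the TATA-binding protein. The windows are chr12:87602515-87602664 on the plus strand for Oog1, chr4:144190567-144190716 on the plus strand for Oog2, chr4:144162652-144162801 on the minus strand for Oog3 and chr4:143450325-143450474 on the minus strand for Oog4.
Oog1: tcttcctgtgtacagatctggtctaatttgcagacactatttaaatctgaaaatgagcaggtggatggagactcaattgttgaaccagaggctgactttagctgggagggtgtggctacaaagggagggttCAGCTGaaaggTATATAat
Oog2: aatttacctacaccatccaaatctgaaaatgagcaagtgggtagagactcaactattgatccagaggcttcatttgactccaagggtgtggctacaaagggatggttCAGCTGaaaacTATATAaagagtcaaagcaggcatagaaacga
Oog3: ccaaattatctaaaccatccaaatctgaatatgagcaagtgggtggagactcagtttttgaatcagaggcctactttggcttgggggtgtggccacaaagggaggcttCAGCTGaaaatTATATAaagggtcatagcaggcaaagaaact
Oog4: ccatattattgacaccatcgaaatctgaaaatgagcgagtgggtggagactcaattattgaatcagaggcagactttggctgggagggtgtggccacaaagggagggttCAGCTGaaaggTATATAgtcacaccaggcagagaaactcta

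Each oogenesin promoter held both runs, with TATATA starting 11 bases after CAGCTG. In Oog2, Oog3 and Oog4 CAGCTG began at positions -43, -42 and -41, counting back from -1 at the base before the start, and TATATA at -32, -31 and -30. In Oog1 they began at -19 and -8. Among 32851 annotated promoter windows of the same length, read on both strands, CAGCTG was found in 8.39%, TATATA in 2.97% and an E-box of any form, CANNTG, in 47.7%. The pair at this spacing was in 8 windows, 0.0244% of the total. They were the 4 oogenesins, Gm2042 and 3 PRAME relatives, namely Pramel23, Pramel26 (Gm13084 in the table) and Pramel32 (C87499 in the table). This was 3 of the 44 PRAME relatives with a RefSeq window. The pair was chosen after the sequences were seen, and a match is a run of letters, not a site. The oogenesin promoters were 58.6% to 83.1% identical to each other over these bases.

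The Tcl1 family has a different start region, shown here for Tcl1, for Tcl1b1, the most abundant Tcl1b copy, and for Tcl1b5, the least abundant. Capitals mark CACCTG, another E-box form, and its reverse complement CAGGTG. The windows are chr12:105222738-105222887 on the minus strand for Tcl1, chr12:105159554-105159703 on the plus strand for Tcl1b1 and chr12:105176194-105176343 on the plus strand for Tcl1b5.
Tcl1: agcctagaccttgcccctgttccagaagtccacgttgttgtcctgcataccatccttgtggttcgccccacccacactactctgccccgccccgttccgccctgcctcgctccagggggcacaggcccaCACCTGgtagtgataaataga
Tcl1b1: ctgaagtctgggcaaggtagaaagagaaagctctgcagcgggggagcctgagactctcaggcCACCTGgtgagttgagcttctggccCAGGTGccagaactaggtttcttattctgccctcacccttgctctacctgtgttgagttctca
Tcl1b5: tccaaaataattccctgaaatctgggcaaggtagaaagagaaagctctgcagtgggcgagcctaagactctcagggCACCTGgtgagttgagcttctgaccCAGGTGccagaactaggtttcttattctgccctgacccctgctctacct

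All 5 Tcl1b promoters held CACCTG followed by CAGGTG, with starts 25 bases apart, and no other of the 32851 windows did. This pair, too, was chosen after the sequences were seen. Tcl1 held CACCTG once, as did 10.6% of all windows on either strand. No CAGCTG or TATATA was found in these 6 windows. The Tcl1b promoters were 60.9% to 82.8% identical to each other and 41.1% to 45.9% identical to that of Tcl1. In RefSeq the 6 genes lie side by side on chromosome 12 in the order Tcl1b2, Tcl1b1, Tcl1b5, Tcl1b3, Tcl1b4 and Tcl1.

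Copies can also share reads, and this sets how far each value can be trusted. Each member's principal GENCODE transcript was cut into overlapping words of 50 bases, and the words were looked up in the transcripts of all other genes. Of Oog1, 96.7% of the words occur in another gene, mostly in Gm2042, which holds 94.8% of them and is not a row of the table. Gm10436, a PRAME relative that is in the table, holds 62.3% of the words of Oog1. Of Oog2, 45.2% are shared, chiefly with Gm13084, and of Oog3 19.7%, chiefly with Gm4350. Oog4 shares 0.725% and Tcl1 none. The Tcl1b copies share words with each other and with no gene outside the family, from 4.28% of Tcl1b4 to 34.1% of Tcl1b3. The values of Oog1 and Oog2, and to a lesser degree those of Tcl1b2, Tcl1b3, Tcl1b5, Oog3 and Tcl1b1, are thus uncertain. Tcl1b1 shares 13.0% of its words. Oog4, Tcl1 and Tcl1b4 share few or no exact words with other annotated transcripts. Near matches and copies outside the annotation were not looked up, and the Tcl1b transcripts were 81.9% to 91.1% identical to each other. Whether any of the 10 genes overlaps another gene was not tested, and the reads do not keep the strand.

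**Figure D1:**
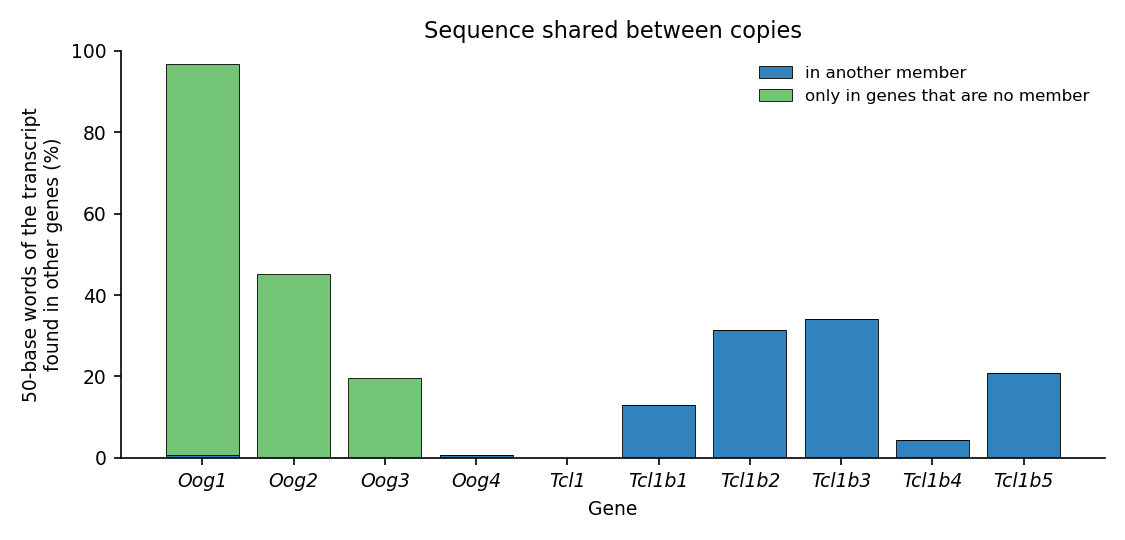
Bars give the share of each member's 50-base transcript words that also occur in transcripts of other genes, split into words found in another member and words found only in genes that are no member. Oog1 stands at 96.7%, Oog4 at 0.725% and Tcl1 at 0.

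Both families were abundant in normal oocytes, and the oogenesins and Tcl1 differed little between the ages in WT. Tcl1 ranked as the 24th most abundant of all genes in WT oocytes at day 14 and the 23rd at day 21, and Oog3 as the 34th and the 30th. The order of levels in WT at day 14 was Tcl1, Oog3, Oog4, Tcl1b1, Tcl1b2, Tcl1b4, Oog2, Tcl1b3, Tcl1b5 and Oog1. Without replicate values it cannot be said which neighbours in this order differ beyond their spread. Tcl1b2, Tcl1b4 and Oog2, at 277, 272 and 258 FPKM, were close together. None of the 10 members was 2-fold apart between the ages in WT, where 5.35% of all genes were. The 5 Tcl1b copies all stood above their day 14 level at day 21, by 0.093 to 0.66 on the log2 scale. Tcl1b2 and Tcl1b5, at 0.66 and 0.56, lay above 93.8% and 90.6% of all genes. The oogenesins lay between -0.034 and 0.10.

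**Figure D2:**
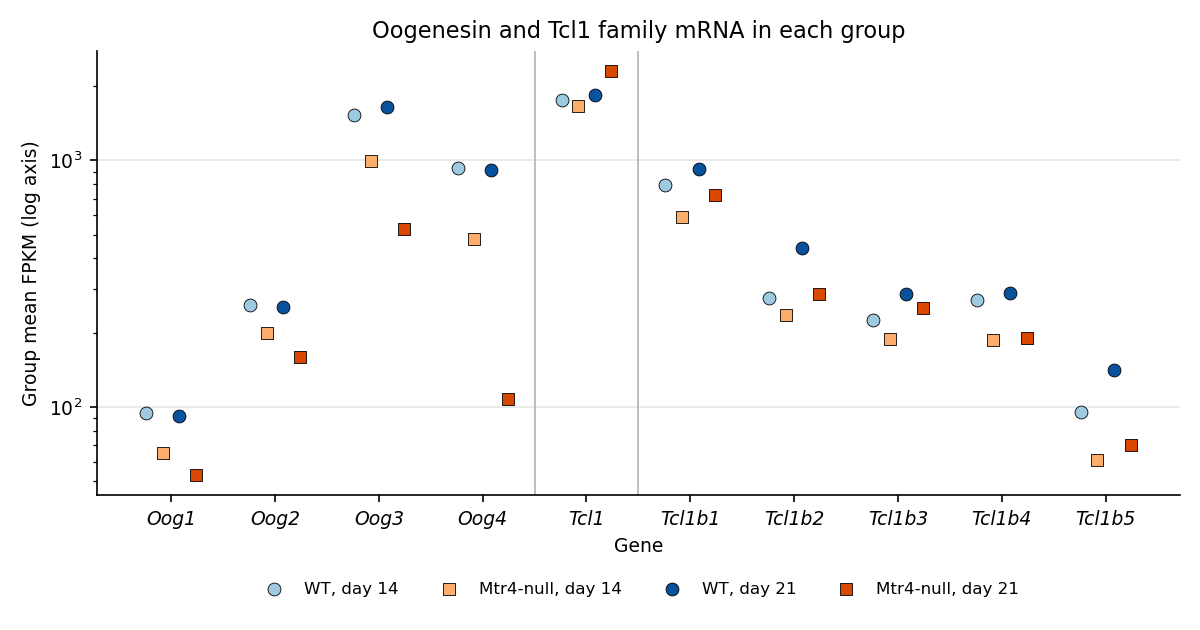
Points give the group mean FPKM of each member on a log axis, with WT as circles and null as squares, day 14 pale and day 21 dark. The null day 21 square is the lowest point of each oogenesin, at 107.6 FPKM for Oog4, and the highest point of Tcl1, at 2304 FPKM.

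The comparison of genotypes asked how these mRNAs differ in oocytes without MTR4, first for the oogenesins. Oog4 stood at 933 FPKM in WT against 479 FPKM in null oocytes at day 14, and at 911 FPKM in WT against 107.6 FPKM in null oocytes at day 21. The WT values were thus nearly level and both null values lower, 1.95-fold at day 14 and 8.46-fold at day 21. Its log2 differences were -0.96 and -3.07, and at day 21 only 83 of the 11913 genes had a lower one. Oog4 ranked 86th in abundance among all genes in WT and 1038th in null oocytes at day 21.

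Oog3, the most abundant oogenesin, stood at 1526 FPKM in WT against 989.5 FPKM in null oocytes at day 14. At day 21 it stood at 1639.9 and 526 FPKM. The null value was 1.54-fold lower at day 14 and 3.12-fold lower at day 21, with log2 differences of -0.62 and -1.64. Oog2 stood at 258 and 199 FPKM at day 14 and at 255 and 159 FPKM at day 21, 1.30-fold and 1.60-fold lower. Oog1 stood at 94.4 and 64.9 FPKM at day 14 and at 92.1 and 52.8 FPKM at day 21, 1.45-fold and 1.74-fold lower. The copies thus kept one direction and differed in size, and those with the most shared words, Oog1 and Oog2, had the smaller differences at day 21. Whether shared words bear on the size of a difference was not tested. Oog2 had the smallest difference of the copies at each age. Of all genes, 13.9% had a lower one at day 14 and 36.1% at day 21.

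The oogenesins also differed in proportion to each other, which no linear scaling of a library can alter. Oog4 made up 33.2% of the summed oogenesin FPKM in WT at day 14, 27.6% in null oocytes at day 14, 31.4% in WT at day 21 and 12.7% in null oocytes at day 21. Oog2 went the other way, with shares of 9.18%, 11.5%, 8.79% and 18.8% in the same order. The ratio of Oog4 to Oog3 was 0.611, 0.484, 0.555 and 0.205. Summed over the 4 copies, oogenesin mRNA stood at 2811 FPKM in WT against 1733 FPKM in null oocytes at day 14, and at 2898 and 845 FPKM at day 21.

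**Figure D3:**
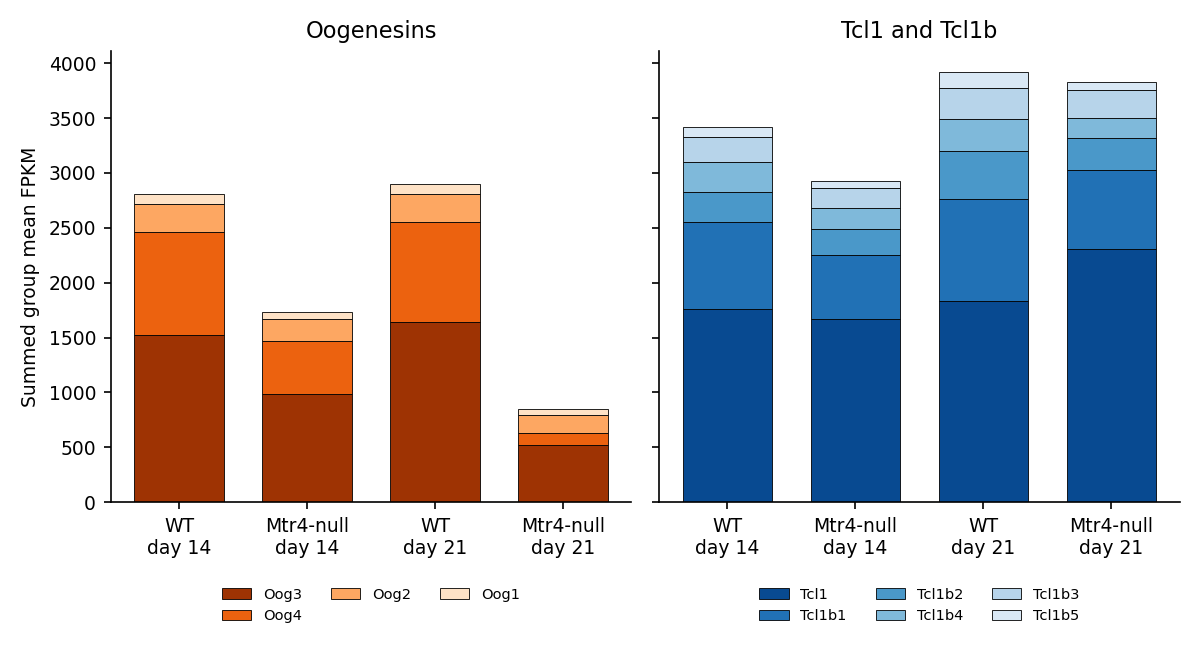
Stacked bars give the summed group mean FPKM of the 4 oogenesins (left) and of Tcl1 with the 5 Tcl1b copies (right) in each group. The oogenesin sum is 3.43-fold lower in null than in WT oocytes at day 21, and the Tcl1 family sum is 3826 against 3917 FPKM.

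Tcl1 went apart from the oogenesins. It stood at 1757 FPKM in WT against 1666 FPKM in null oocytes at day 14, and at 1837 and 2304 FPKM at day 21. The null value was thus slightly below WT at day 14 and 1.25-fold above it at day 21, with log2 differences of -0.077 and 0.33. The latter is 0.65 under median-of-ratios scaling and -0.085 under quantile normalization, so its direction is not settled.

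As deposited, the Tcl1b copies were all lower in null oocytes at both ages, with differences that overlapped those of the oogenesins, though Tcl1b3 turned to 0.14 at day 21 under median-of-ratios scaling. Tcl1b1 stood at 792 FPKM in WT against 589 FPKM in null oocytes at day 14, and at 921 and 721 FPKM at day 21. Tcl1b2 stood at 277 and 237 FPKM at day 14 and at 439.8 and 288 FPKM at day 21. Tcl1b3 stood at 226 and 189 FPKM at day 14 and at 287 and 252 FPKM at day 21. These copies were 1.14-fold to 1.53-fold lower in null oocytes at either age. Tcl1b4 stood at 272 and 186 FPKM at day 14 and at 291 and 190.0 FPKM at day 21. Tcl1b5 stood at 95.5 and 60.6 FPKM at day 14 and at 141 and 70.3 FPKM at day 21. Tcl1b5 had the widest gap of the 5 at both ages, with log2 differences of -0.65 and -0.99, the latter just short of 2-fold on this scale. Tcl1b1 made up 44.3% to 47.6% of the summed Tcl1b FPKM in each of the 4 groups. Tcl1 stood at 0.883 times the Tcl1b sum in WT and 1.51 times in null oocytes at day 21.

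Counted together, all 10 members were lower in null oocytes at day 14, a direction kept under every scaling tried, with a median log2 difference of -0.48. Of all genes, 37.8% lay below the smallest member difference, that of Tcl1 at -0.077, so at least that share lay below 0. The median of all genes was 0.052 as deposited and -0.095 under quantile normalization, and that of the 1588 genes at least as abundant as the least abundant member was -0.11. None of the 10 was 2-fold apart at day 14, where 9.65% of all genes were, 8.1% higher and 1.55% lower. At day 21, Oog3 and Oog4 were 2-fold lower and none was higher, which is 2 of 10 members where 25.7% of all genes were 2-fold lower and 20.2% higher. The share of members is thus not above that of other genes, and it was 27.6% among the equally abundant genes. The members' median of -0.64 at day 21 stands beside -0.27 for all genes and -0.45 for the abundant ones. At day 21, 53.0% of all genes lay below the Tcl1b3 difference of -0.19 and 67.4% below the Tcl1 difference of 0.33. The share of all genes below 0 thus lies between these 2 values. It was not counted for the abundant genes, whose median was -0.45. Of the members, 9 of 10 lay below 0 as deposited. Tcl1b3 left this count under median-of-ratios scaling, and Tcl1 joined it under quantile normalization. Under the former scaling the median of all genes at day 21 moved from -0.27 to 0, and Oog4 and Oog3 stood at -2.75 and -1.32.

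**Figure D4:**
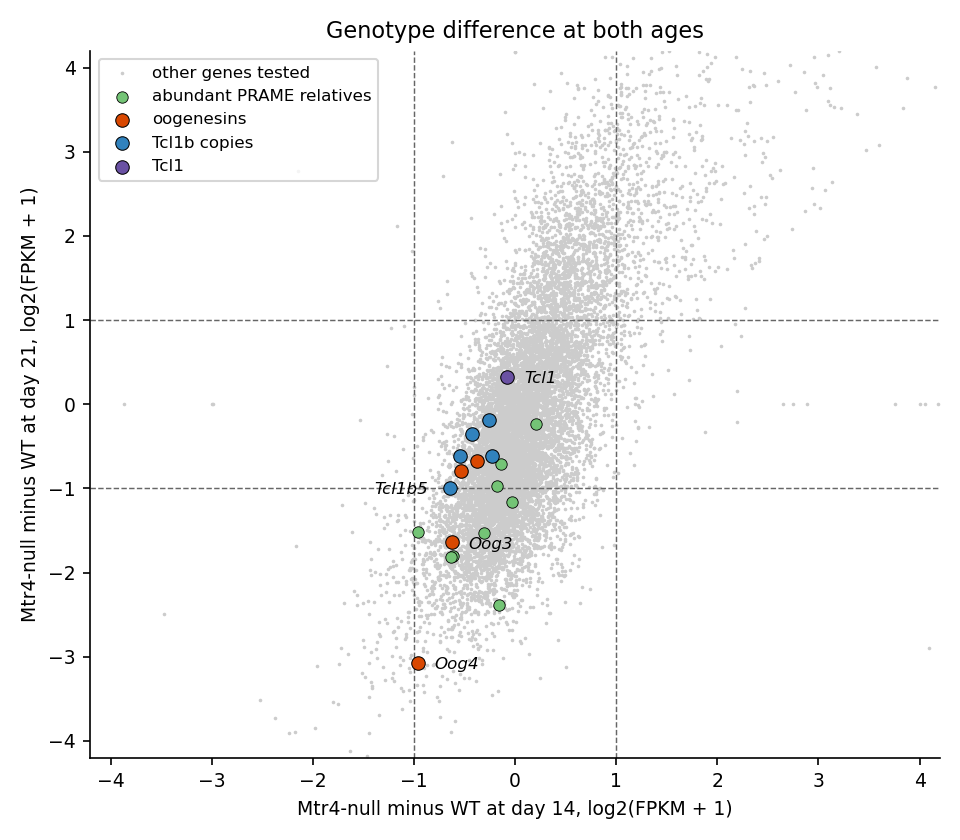
Each point is a gene, placed by its null minus WT difference in log2(FPKM + 1) at day 14 (horizontal) and day 21 (vertical), with dashed lines at 2-fold and 359 genes beyond the axes not drawn. Oog4 lies at -0.96 and -3.07, and Tcl1 at -0.077 and 0.33.

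Within null oocytes, the question was whether mRNA levels differed from day 14 to day 21, and only Oog4 was 2-fold apart. It was 4.45-fold lower at day 21, a log2 difference of -2.14. Of the 11913 genes, 2216, or 18.6%, were 2-fold lower and 1082 were higher. The share of members, 1 of 10, is thus not above that of all genes. The median of all genes was -0.30 as deposited, 0.049 under median-of-ratios scaling and -0.13 under quantile normalization, and Oog4 stood at -1.72 and -2.20 under these. Oog3 followed at -0.91, and stood at -0.49 under median-of-ratios scaling and -1.29 under quantile normalization. The 6 Tcl1 family genes lay between 0.027 and 0.47 as deposited. Tcl1b1 and Tcl1b4 turned below 0 under quantile normalization, and Oog1 and Oog2, at -0.29 and -0.33, turned above 0 under median-of-ratios scaling. The genotype difference itself shifted between the ages by -2.11 for Oog4 and -1.02 for Oog3, the 2 members past 2-fold, where 22.4% of all genes shifted down by as much. Under median-of-ratios scaling the shift of Oog3 was -0.59. These comparisons share their groups, so they are not independent of each other. All those that use the null day 21 mean rest on the column that may average fewer libraries.

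The wider PRAME family was described next, because the oogenesins belong to it. Of 43 relatives on the list, 39 were in the table, 22 of them under a mean of 1 FPKM and 9 of these at 0 in every group. Of the 17 that passed, 1 was 2-fold higher and 1 lower in null oocytes at day 14, and 2 were higher and 6 lower at day 21. Of all genes, 8.1% were higher and 1.55% lower at day 14, and 20.2% were higher and 25.7% lower at day 21. A cut at the level of the least abundant member, made after the values were seen, leaves 9 abundant relatives. All 6 of the 2-fold lower ones were among these 9, whose median at day 21 was -1.52, beside 27.6% 2-fold lower and a median of -0.45 among all genes at that level. Under both median-of-ratios scaling and quantile normalization 5 of the 9 were 2-fold lower.

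Several abundant relatives had values like those of Oog3. C87977, the nearest gene of the table beyond Oog2, stood at 1037 FPKM in WT against 677 FPKM in null oocytes at day 14, and at 958 and 275 FPKM at day 21. Gm13023 stood at 765 and 494 FPKM at day 14 and at 809.7 and 229 FPKM at day 21. Both share 50-base words with Oog1, 18.7% of its words in the case of C87977 and 20.5% in that of Gm13023. Gm10436, another of the 9, shares more, 62.3% of the words of Oog1, and had other values. Gm10436 stood at 170 and 196 FPKM at day 14 and at 275 and 232 FPKM at day 21. Its log2 differences were 0.20 and -0.24. Gm13103 stood at 119 and 106 FPKM at day 14 and at 169 and 31.6 FPKM at day 21, the lowest relative value of the 9, with a log2 difference of -2.38. Gm13125, C87499 and Pramef12 had differences of -1.53, -1.52 and -1.16 at day 21. Gm13084, which shares 40.7% of the words of Oog2, stood at 993 and 902 FPKM at day 14 and at 1002 and 612 FPKM at day 21, a log2 difference of -0.71 beside -0.68 for Oog2. C87414 was close to 2-fold lower at -0.97.

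A few relatives of low level went the other way. E330014E10Rik stood at 8.93 and 3.42 FPKM at day 14 and at 7.05 and 33.9 FPKM at day 21, so its log2 differences were -1.17 and 2.12. Gm12794 stood at 1.18 and 3.12 FPKM at day 14 and at 0.913 and 6.54 FPKM at day 21. Pramef17 stood at 2.14 and 6.44 FPKM at day 14 and at 1.06 and 2.31 FPKM at day 21. Such genes can pass the filter through their null values.

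**Figure D5:**
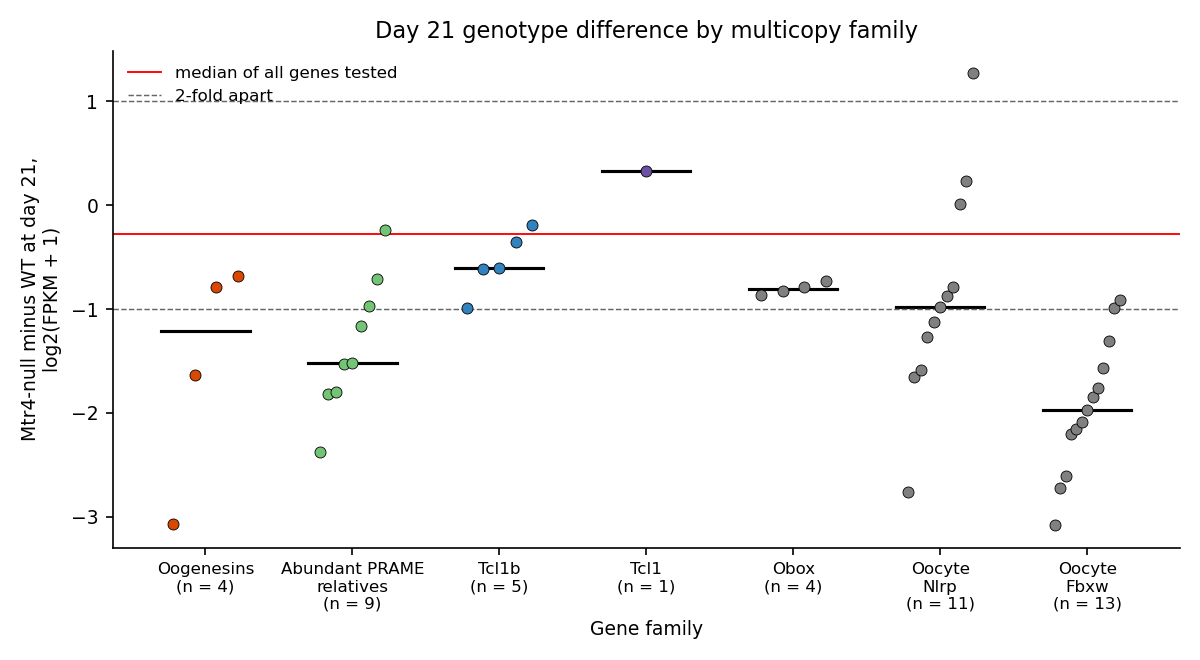
Points give the null minus WT difference in log2(FPKM + 1) at day 21 for each gene, by family, with black bars for family medians, a red line for the median of all genes tested at -0.27 and dashed lines at 2-fold. Of the oogenesins 2 of 4 lie below the lower dashed line and of the Tcl1b copies none, while 11 of 13 oocyte Fbxw genes do. Of all genes tested, 25.7% were 2-fold lower.

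Other oocyte multicopy families give a scale for these values. Of 13 genes of the oocyte Fbxw cluster, which encode F-box proteins of ubiquitin ligases, 11 were 2-fold lower at day 21, with a median of -1.97. Fbxw24 stood at 2689 FPKM in WT against 1086 FPKM in null oocytes. Of 11 oocyte Nlrp genes that passed the filter, 5 were lower and 1 higher, with a median of -0.98, and none of the 4 Obox homeobox genes that passed was 2-fold apart, with a median of -0.80. The oogenesin median was -1.22 and the Tcl1b median -0.61. Of all genes, 25.7% were 2-fold lower and 20.2% higher at day 21, with a median of -0.27. Among genes at least as abundant as the least abundant member, 27.6% were 2-fold lower, with a median of -0.45. Whether families differ from each other could not be tested without replicate values.

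Genes whose products work with these families had modest levels. Akt1 and Akt2, which encode kinases that TCL1 binds, were low beside Tcl1. Akt1 lay between 9.78 and 11.6 FPKM in all 4 groups. Akt2 stood at 9.07 FPKM in WT against 9.21 FPKM in null oocytes at day 14, and in the same order at day 21 at 8.09 and 5.37 FPKM. Neither was 2-fold apart between genotypes at either age. Mtcp1, a further TCL1 family gene outside the cluster, stood at 81.3 and 72.7 FPKM at day 14 and at 88.5 and 55.1 FPKM at day 21. Ralgds stood at 7.58 and 6.74 FPKM and at 7.14 and 4.02 FPKM. None of the partner genes reported here was 2-fold apart between genotypes at day 14, where 9.65% of all genes were. At day 21 Pdpk1, which encodes a kinase that activates AKT, was 2-fold lower at -1.49, and so was Foxo1, which encodes a transcription factor under AKT control, at -1.27. No partner reported here was 2-fold higher. Of all genes, 25.7% were 2-fold lower and 20.2% higher at day 21, so a few lower partners are not unusual.

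Among oocyte transcription factors, Nobox, which encodes a homeodomain protein needed for oocyte gene expression, stood at 665 and 503 FPKM at day 14 and at 541 and 163 FPKM at day 21. Figla, which encodes a factor that binds E-boxes of zona genes, stood at 159 and 192 FPKM at day 14 and at 85.6 and 116 FPKM at day 21. The NOBOX core TAATTG was found before the start of Oog4 alone among the 10 members, on the reverse strand, and in 4.05% of all windows on either strand. No other form of the core was looked up, and whether NOBOX bears on Oog4 was not tested. Of the 8 listed factors, 2 were 2-fold lower and 2 higher at day 21, where 25.7% of all genes were lower and 20.2% higher.

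Neighbouring genes were mostly at lower levels than the members. Of the genes nearest the Tcl1 cluster, Glrx5, which encodes a glutaredoxin of iron-sulphur cluster assembly, stood at 154 FPKM in WT against 129 FPKM in null oocytes at day 14 and at 240.2 and 68.6 FPKM at day 21. On the other side, the non-coding 2810011L19Rik and Gm2721 stayed below 1 FPKM in every group. The short locus Mir3069 was listed at 0 in 3 groups and at 91.8 FPKM in null oocytes at day 14. Next to Oog1, Snw1, a splicing factor gene, stood at 62.5 and 43.0 FPKM at day 14 and at 84.0 and 31.8 FPKM at day 21, and Gm8300 at 0.0562 FPKM in WT against 7.63 FPKM in null oocytes at day 21. Gm4027 stayed below 1 FPKM and Gm16381 was listed at 0 in every group. Beyond Oog3, Gm13102 and Pramel4 were near 0, as was Pramel5 beyond C87977. Next to Oog4, Pramef8 stood at 10.6 and 17.0 FPKM at day 14 and at 13.6 and 11.5 FPKM at day 21, Pramel1 was near 0, and Gm13043 and Gm13040 were listed at 0.

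Profiles over the 4 groups were compared with those of the 6298 genes with a mean of at least 10 FPKM, each centred on its own mean in log2(FPKM + 1). Nearest to Oog4 were Tlcd2, Acnat1 and Gm14403, at root mean square differences of 0.062, 0.072 and 0.083. Tlcd2 stood at 4097 and 1977 FPKM at day 14 and at 4236 and 483 FPKM at day 21. Nearest to Oog1 were Ddb2, Ptprr and Taf12, at 0.026 to 0.035. Nearest to Tcl1 were Fcf1, Unc50 and Ahsa1, at 0.013 to 0.024, and nearest to Tcl1b1 were N4bp1, Ccz1 and Sec61g, at 0.014 to 0.018. With 4 values per gene, such closeness describes these means and says nothing of shared control.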

How the data were processed

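Poly(A) RNA-seq of 12 samples in 4 groups was deposited as 1 table of FPKM with 1 column per group, a mean by the authors. The tools named, per the submitters' processing notes, are TopHat2 2.1.1 and Cufflinks 2.2.1, and the build is mm9. The sources used here do not state how reads that match several copies were assigned. The members and lists were chosen with earlier results of these data known. Differences of log2(FPKM + 1) and counts at 2-fold were computed in Python 3.11.15 with pandas 2.3.3. They were also run on simulated data without noise, which checks the arithmetic and not the reliability of the counts. The named genes are all members, the 4 most abundant PRAME relatives and those 2-fold apart between genotypes, partners of the members and those 2-fold apart, the most abundant genes of other lists, the 2 nearest table genes on each side of a locus, and the 3 nearest profiles to Oog1, Oog4, Tcl1 and Tcl1b1. PRAME relatives were extended by RefSeq symbols and synonyms, and Gm10436 is named too for the words it shares with Oog1. Promoters came from RefSeq GRCm38.p6 and transcripts from GENCODE vM21. Sequences were aligned globally with Biopython 1.88. Alternatives were a pseudocount of 0.1, no filter, a minimum mean FPKM of 5, median-of-ratios scaling, quantile normalization and sums over copies. One partner gene is not reported here.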

Additional observations from a re-analysis of the deposited data

How the results depend on the processing

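Of the 10 members, 0 were 2-fold apart between genotypes at day 14, and median-of-ratios scaling made it 1, Oog4 at -1.06. At day 21 the count was 2 of 10 under both scalings and 3 with a pseudocount of 0.1, which takes Tcl1b5 to just past 2-fold. With FPKM summed over copies it was 1 of 3 units, the oogenesins, both for the day 21 difference and for the shift between the ages. The shift between the ages also gave 1 rather than 2 under median-of-ratios scaling, and the comparison of ages in Mtr4-null oocytes gave 2 rather than 1 under quantile normalization. Filters on low FPKM changed no count, since all members lie above them. Of all genes, median-of-ratios scaling gave 2895 higher and 2155 lower at day 21 in place of 2410 and 3067, and 1813 and 1044 in place of 1082 and 2216 for age in Mtr4-null oocytes. For the shift between the ages it gave 2360 and 1474 in place of 1618 and 2672. For these 2 comparisons quantile normalization gave 1483 higher and 1595 lower, and 1952 and 2053. It also gave 708 higher and 321 lower at day 14 in place of 965 and 185. With a pseudocount of 0.1 the counts were 1406 and 334 at day 14 and, for age in WT, 447 and 835 in place of 241 and 396. Of the 9 abundant PRAME relatives, 4 were 2-fold lower with age in Mtr4-null oocytes, and 1 under median-of-ratios scaling. The same scaling made 1 of the 9 2-fold lower at day 14 in place of 0. The settings for the relatives were chosen after seeing the data. No paired analysis was possible because the columns are group means that carry no replicate numbers, and leaving out single replicates was not run for the same reason. Read numbers are unknown, so what they limit cannot be stated.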
